A study of Homo sapiens with 30 samples.

Results

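HepG2 cells, a human hepatocellular carcinoma line widely used as a liver model, were exposed for 24 h to an ethanol extract of Sibjeondaebo-tang at 500 µg/mL, its high dose, and compared with cells given the vehicle, DMSO. Sibjeondaebo-tang is a traditional Korean multi-herb tonic, described as Palmul-tang with further herbs added. Each group held 3 libraries, so the comparison used 6 of the 30 libraries in the series and every gene that passed a filter on low counts, 16083 of 60675 rows of the deposited table. The same extract at 100 µg/mL (medium dose) and at 20 µg/mL (low dose), again with 3 libraries each, served to find which changes also followed the dose, and Palmul-tang extract at 500 µg/mL served as a second formula at the same dose. Vehicle is labelled 0.1% DMSO, while the series description gives another DMSO percentage, so the solvent level is uncertain. HepG2 is a single established tumour line with low levels of several adult liver enzymes. Nothing in the labels says that the 3 libraries of a group came from separate cultures. The p-values measure the spread between libraries within groups, estimated together over 27 libraries of 10 groups, and that spread may be technical.

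The vehicle libraries carry the label prefix E1 and all Sibjeondaebo-tang and Palmul-tang libraries the prefix 15, although every title names the same batch. An effect of the extract against vehicle and a shift between the 2 label sets therefore cannot be told apart, whereas a difference between doses lies inside a single set. For that reason each gene called against vehicle was also placed by its behaviour between doses. A gene was called when its adjusted p, from edgeR's quasi-likelihood test with Benjamini-Hochberg adjustment over all 16083 genes, was below 0.05. It followed the dose when it was also called in the same direction in high against low dose; it was held from the low dose when the low dose already differed from vehicle and the step from low to high was not called; it went against the dose when that step was called in the opposite direction; and the remaining genes, not placed by dose, had neither the low dose against vehicle nor the step from low to high called. Levels are in CPM, counts scaled to a common library total with TMM factors, which compare a gene between libraries and not genes with each other, and changes are log2 fold changes with their standard error (SE).

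Several well-known stress and metabolic programmes of hepatocytes bear on these data. The aryl hydrocarbon receptor (AHR) binds planar aromatic ligands, pairs with ARNT and switches on CYP1 enzymes. NRF2 is released from KEAP1 by electrophiles and raises glutathione, thioredoxin and quinone-reducing enzymes, while ATF4 of the integrated stress response raises genes of amino acid supply and tRNA charging. Heat shock factor raises cytosolic chaperones when proteins misfold, MTF1 raises metallothioneins when zinc or other metals are free, and BMP signalling through SMAD proteins sustains ID genes and hepcidin in hepatocytes.

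The promoters of 6 genes whose levels the results turn on are printed because each holds the short motif that the factor of its programme is known to bind. They are the 250 bases before the RefSeq start on GRCh38.p14, 5′ to 3′ on the gene's own strand, with matches in capitals. CYP1A1 is at chr15:74725529-74725778 on the minus strand with GCGTG, the core of the AHR element. HSPA1A is at chr6:31815293-31815542 on the plus strand, HSPA8 at chr11:123062137-123062386 and CHORDC1 at chr11:90223050-90223299, both on the minus strand, and these 3 show GAANNTTC, a unit of the heat shock element. ASNS, the first of its 2 entries in the table, is at chr7:97872409-97872658 on the minus strand with TGATGNAA, the core of the amino acid response element. MT1X is at chr16:56682220-56682469 on the plus strand with TGCGCNC, the core of the metal response element.
CYP1A1: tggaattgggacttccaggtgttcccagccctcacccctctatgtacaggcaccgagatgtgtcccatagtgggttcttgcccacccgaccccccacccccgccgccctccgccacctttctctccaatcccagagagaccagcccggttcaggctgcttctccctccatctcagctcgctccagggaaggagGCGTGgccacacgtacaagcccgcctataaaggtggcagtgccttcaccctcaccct
HSPA1A: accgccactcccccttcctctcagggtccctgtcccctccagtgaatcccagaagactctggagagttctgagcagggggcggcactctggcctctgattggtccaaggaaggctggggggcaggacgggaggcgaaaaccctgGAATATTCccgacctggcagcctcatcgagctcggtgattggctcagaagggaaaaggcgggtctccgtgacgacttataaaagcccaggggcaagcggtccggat
HSPA8: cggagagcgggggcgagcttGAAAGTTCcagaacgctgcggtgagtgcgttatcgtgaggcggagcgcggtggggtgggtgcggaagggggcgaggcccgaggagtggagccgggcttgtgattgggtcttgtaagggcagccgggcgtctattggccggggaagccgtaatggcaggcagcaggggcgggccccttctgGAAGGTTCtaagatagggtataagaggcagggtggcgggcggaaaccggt
CHORDC1: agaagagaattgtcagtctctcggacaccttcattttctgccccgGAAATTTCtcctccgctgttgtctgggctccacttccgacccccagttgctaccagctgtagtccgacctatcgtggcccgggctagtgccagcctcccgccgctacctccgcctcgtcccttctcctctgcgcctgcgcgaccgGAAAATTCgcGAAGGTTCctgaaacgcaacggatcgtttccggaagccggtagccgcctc
ASNS: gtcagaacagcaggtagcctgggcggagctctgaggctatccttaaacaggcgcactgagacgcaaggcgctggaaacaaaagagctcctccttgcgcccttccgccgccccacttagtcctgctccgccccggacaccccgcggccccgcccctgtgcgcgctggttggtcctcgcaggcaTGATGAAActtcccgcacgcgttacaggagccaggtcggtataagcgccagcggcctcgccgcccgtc
MT1X: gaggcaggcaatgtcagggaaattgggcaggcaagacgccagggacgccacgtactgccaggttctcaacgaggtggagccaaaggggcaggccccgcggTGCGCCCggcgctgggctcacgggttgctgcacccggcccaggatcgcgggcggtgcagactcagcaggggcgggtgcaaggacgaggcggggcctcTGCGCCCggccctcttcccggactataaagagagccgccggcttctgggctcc
Matches were sought on both strands. Counted from the start, the match began at -57 in CYP1A1, at -106 in HSPA1A, at -230 and -50 in HSPA8, at -205, -60 and -50 in CHORDC1, at -68 in ASNS, and at -150 and -53 in MT1X. Of all 35116 promoter entries, 32.2% held GCGTG, 5.78% held GAANNTTC, 3.14% held TGATGNAA and 16.8% held TGCGCNC. A match is a run of letters and not a measured site.

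The 6 libraries of the main comparison held between 25577309 and 33674918 counts each. All 9 hepatocyte markers, among them ALB, APOB and HNF4A, stood at 1 CPM or more in both groups, with sums of 57455 to 59502 CPM in vehicle and 59800 to 61660 CPM at the high dose. Of 9 fibroblast markers only 2 reached 1 CPM in either group, and COL1A2, POSTN and DCN were at 0 in both. The 8 immune markers summed to 1223 to 1341 CPM in vehicle and 1621 to 1825 CPM at the high dose, with 3 of 8 at 1 CPM or more in each group and the pan-leukocyte gene PTPRC at 0 in both. The mitochondrial share of counts was 12.4% to 14.5% in vehicle, 15.7% to 17.0% at the low dose, 15.7% to 19.7% at the medium dose and 17.2% to 19.4% at the high dose; the part of either in the results was not tested. Library 3 of the low dose stood apart with fibroblast markers summing to 35.1 CPM, against 10.1 and 10.3 CPM in its partners. Without it, high against low dose called 2428 genes in place of 3191 and 1703 genes followed the dose in place of 2092. Leaving out low dose replicate 1 or 2 instead lowered the counts further, to 2382 or 2204 calls and 1649 or 1567 genes. In bulk RNA fewer cells of a kind and less RNA per cell cannot be told apart.

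At 500 µg/mL, 3109 genes were higher than in vehicle (19.3% of those tested) and 2682 were lower (16.7%), together 36.0%. Most changes were small: the median log2 change was 0.27 among the higher and -0.38 among the lower genes, and only 97 higher and 273 lower genes changed by 1 or more on the log2 scale. When GC content and transcript length were modelled as an offset, the higher share of all calls moved from 53.7% to 64.0%. The median over all tested genes was -0.01. Against the same vehicle libraries the medium dose called 4852 genes (30.2%) and the low dose 3696 (23.0%).

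Inside the Sibjeondaebo-tang libraries, high against low dose called 3191 genes (19.8%), 1673 higher (10.4%) and 1518 lower (9.44%). These calls share the high dose libraries with the comparison against vehicle. By the definition above, 1083 of the 3109 higher genes (34.8%) and 1009 of the 2682 lower genes (37.6%) followed the dose, which is 6.73% and 6.27% of all tested genes. In 1908 of these 2092 the medium dose mean also lay between the low and the high. A further 1037 higher and 947 lower genes were held from the low dose, 972 higher and 710 lower were not placed by dose (387 and 258 of them also called at the medium dose against vehicle), and 17 higher and 16 lower went against the dose. Without high dose replicate 3, high against low called 2042 genes and 1285 followed the dose. High against medium dose called 810 higher (5.04%) and 976 lower genes (6.07%). The offset moved the higher share from 52.4% to 66.7% among all high against low calls and from 51.8% to 68.4% among genes that followed the dose.

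**Figure D1:**
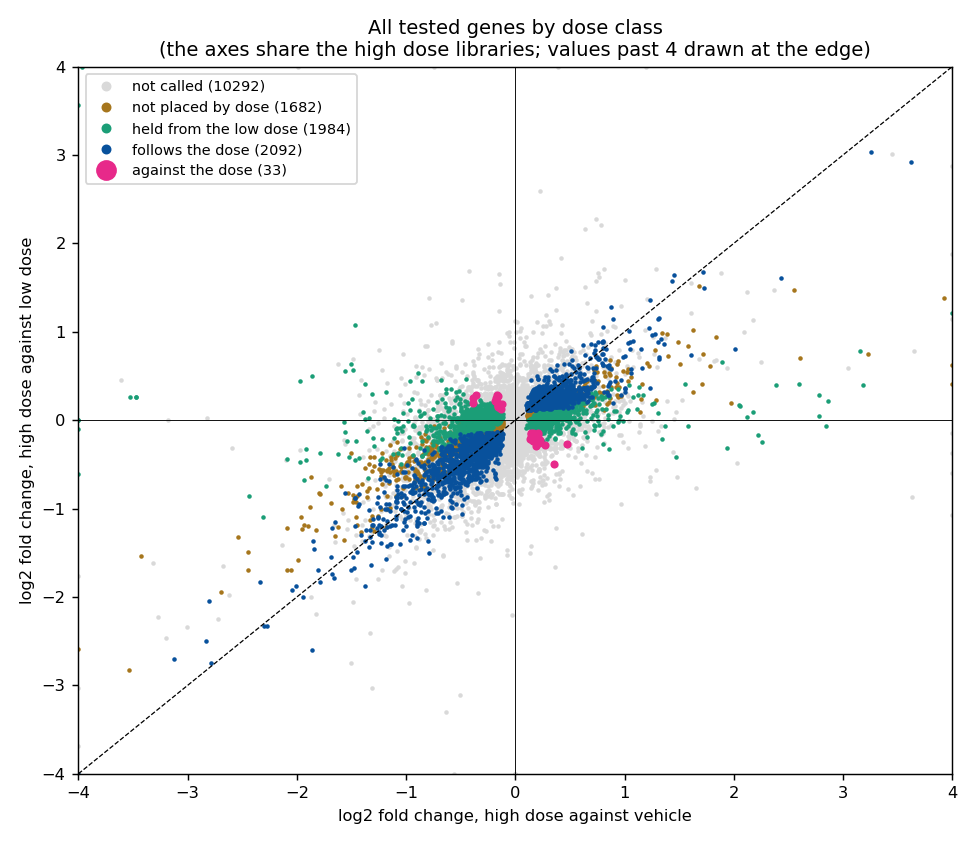
Log2 fold change of every tested gene in high dose against vehicle (x axis) and in high against low dose (y axis), one point per gene, coloured by dose class, with equal changes on the dashed line. The 2092 genes that followed the dose lie along that line, and the 1984 held from the low dose spread along the x axis; both axes use the high dose libraries.

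The plot of both fold changes separates genes that moved further with dose from a similar number that had already moved at the lowest dose. The clearest single change was that of CYP1A1, the AHR-induced monooxygenase that oxidises polycyclic aromatic compounds. CYP1A1 (ENSG00000140465, chr15:74719542-74725610, minus strand, GRCh38) stood at 12.5, 9.56 and 11.7 CPM in the vehicle libraries, at 17.9, 19.3 and 17.1 CPM at the low dose, at 37.6, 37.6 and 40.5 CPM at the medium dose, and at 124, 127 and 160 CPM at the high dose. No 2 dose groups overlapped, and every step was upward. The log2 change was 3.62 ± 0.087 (SE) against vehicle, a 12.3-fold rise with adjusted p = 9.42e-22, and 2.92 against the low dose.

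Of 11 tested AHR targets 5 rose, none fell, and 4 of the 5 followed the dose. The called share of this list was 45.5%, against 36.0% of all tested genes. ALDH3A1, an aldehyde dehydrogenase, rose from 1.69, 1.60 and 1.53 CPM to 4.14, 4.75 and 4.07 CPM, with the low dose at 1.49, 1.67 and 1.14 CPM. NQO1, a quinone reductase shared with the NRF2 list, went from 390, 387 and 369 CPM in vehicle, through 347, 353 and 356 CPM at the low dose, to 608, 654 and 679 CPM at the high dose. For both enzymes no low dose library exceeded the highest vehicle library, and the high dose lay apart from both groups. AHRR, the repressor that AHR induces to limit itself, was the exception, held from the low dose at log2 1.14 there and 1.55 ± 0.312 at the high dose, at levels under 1 CPM throughout. CYP1A2, named after its values were seen and under 1 CPM in every group, rose by 3.26, while UGT1A6, TIPARP, SLC7A5, NFE2L2, CYP1B1 and SERPINB2 did not pass. The receptor itself, AHR, stood at 38.7, 36.3 and 40.5 CPM in vehicle and 41.8, 42.3 and 47.1 CPM at the high dose, a call with adjusted p = 0.0485 that was lost in 7 of 13 alternatives. GCGTG stood in the promoters of 6 of 9 listed AHR targets with an entry, and in 51.9% of all tested genes with one.

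**Figure D2:**
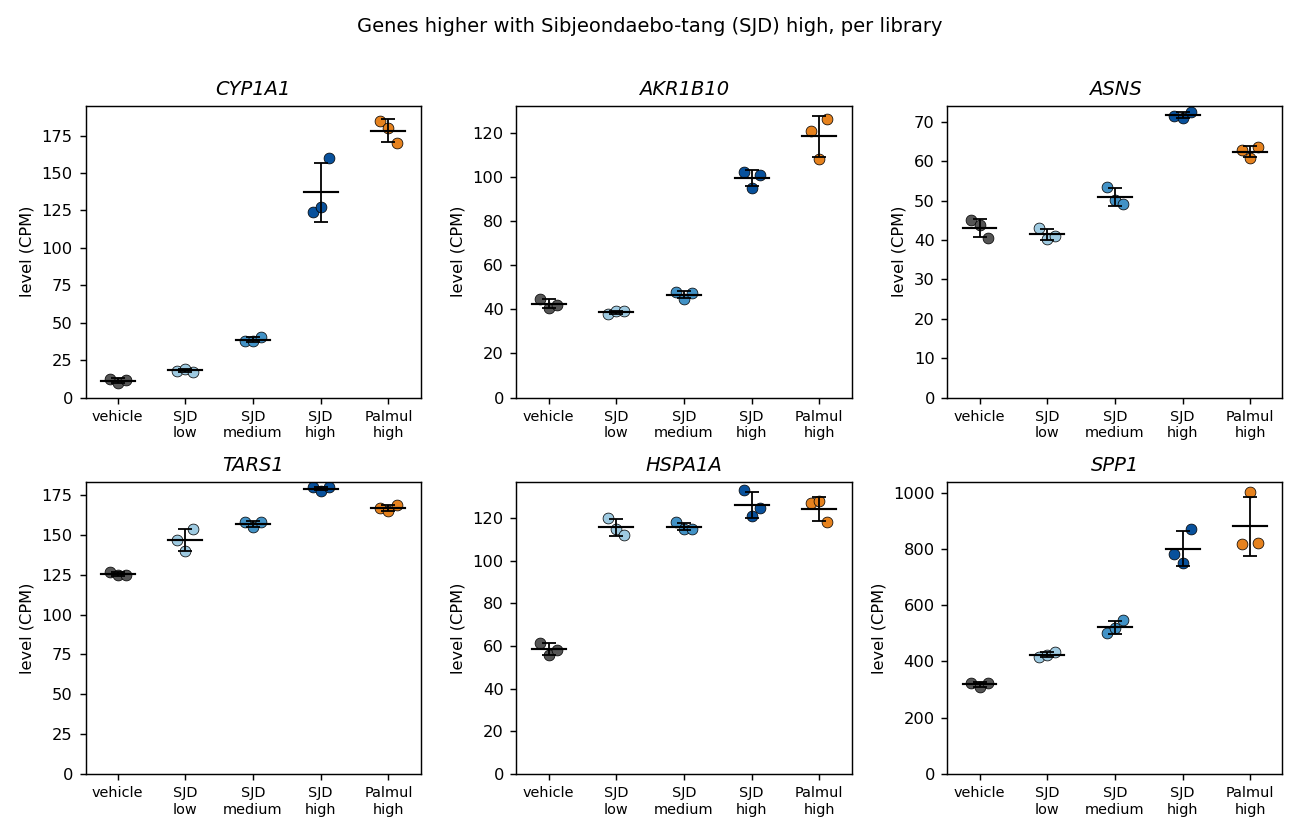
Level in CPM of 6 genes in every library of vehicle, the 3 Sibjeondaebo-tang (SJD) doses and Palmul-tang high, with 1 panel per gene, 1 point per library, lines at the group means and bars of 1 SD (n = 3). CYP1A1 climbs at every dose from a mean of 11.3 to 137 CPM, AKR1B10 rises mainly at the high dose, and HSPA1A is already high at the low dose.

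The panels by gene show 3 shapes that recur in the lists: a climb at each dose, a rise mainly at the high dose, and an early rise that stays level. A rise mainly at the high dose was seen in the NRF2 targets, of which 22 of 29 rose at the high dose and 1 fell, with a median log2 change of 0.38. All 22 followed the dose. At the low dose, against the same vehicle libraries, 1 of 29 was higher and 5 were lower, and at the medium dose 6 were higher and 6 lower. Of all tested genes 11.5% were higher and 11.5% lower at the low dose, and 15.3% and 14.8% at the medium dose. The list's median was -0.02 at the low and 0.07 at the medium dose.

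AKR1B10, an aldo-keto reductase that clears reactive carbonyls (ENSG00000198074, chr7:134527592-134541408, plus strand), stood at 44.6, 40.6 and 42.1 CPM in vehicle, 37.8, 39.0 and 39.2 CPM at the low dose, 48.0, 44.7 and 47.2 CPM at the medium dose and 102, 95.1 and 101 CPM at the high dose. The high dose libraries lay above all others. The low dose was not called against vehicle (-0.13, adjusted p = 0.116). Its relative AKR1C2 rose from 172, 162 and 166 CPM to 296, 268 and 302 CPM. Each medium dose library stood at 150 CPM, a difference from vehicle that was not called (-0.15, adjusted p = 0.0717). Reads of the near-identical AKR1C genes may be shared between them. SLC7A11, which imports cystine for glutathione, rose from 29.9, 25.1 and 28.6 CPM to 63.5, 57.4 and 55.9 CPM (log2 1.08 ± 0.098). GCLC, the catalytic subunit of the rate-limiting step of glutathione synthesis, rose from 73.6, 72.1 and 75.8 CPM to 105, 102 and 106 CPM. The ferritin heavy chain gene FTH1, which stores iron, rose from 1852, 1908 and 1791 CPM to 3190, 2866 and 3218 CPM. HMOX1, the haem-degrading enzyme often used as the marker of this response, rose less than these, from 70.9, 63.3 and 65.0 CPM to 75.2, 86.8 and 86.3 CPM (0.32 ± 0.060). The median of the NRF2 list was 0.38, so HMOX1 was near it. PRDX1 was the single member that fell (-0.18, named after its values were seen), and GSR, ABCC2, AKR1C3, SLC48A1 and TRIM16L were among those that did not pass.

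Among 8 regulators of NRF2, 2 rose and 2 fell. SQSTM1, an autophagy receptor that binds KEAP1, followed the dose upward (0.28 ± 0.041). So did MAFF (0.42 ± 0.095), a partner with which NRF2 binds DNA. MAFK (-0.29 ± 0.088) and MAFG (-0.14 ± 0.050), also such partners, fell and were held from the low dose, so the partners split in direction. The calls of MAFK and MAFG were both lost in at least 1 alternative. Against vehicle, 19.3% of all tested genes were higher and 16.7% lower, while 6.73% followed the dose upward and 6.27% downward. Of antioxidant enzymes outside the NRF2 list, 6 of 20 rose, 4 fell and 2 followed the dose, both upward. Among them SELENOW fell from 48.7, 50.6 and 46.0 CPM to 34.5, 33.1 and 31.1 CPM and the mitochondrial peroxiredoxin PRDX3 fell by 0.29 ± 0.058, both already at the low dose.

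Many amino acid supply genes rose. Of 21 integrated stress response genes 14 rose and 1 fell (median 0.36), and 11 of the 14 followed the dose. ASNS, asparagine synthetase, whose promoter is printed above, stood at 45.1, 43.7 and 40.6 CPM in vehicle, 43.0, 40.3 and 40.9 CPM at the low dose, 53.5, 50.1 and 49.2 CPM at the medium dose and 71.6, 70.9 and 72.4 CPM at the high dose. The low dose overlapped vehicle, and the medium and high doses each lay apart from both. CEBPB, a transcription factor, began earlier, at 17.2, 21.6 and 24.4 CPM in vehicle, 39.9, 36.6 and 38.9 CPM at the low dose and 49.8, 49.8 and 48.4 CPM at the high dose. STC2, a secreted glycoprotein, rose by 0.72 ± 0.053 and CCPG1, an ER autophagy receptor, by 0.67 ± 0.060. DDIT3, which promotes death under prolonged stress, went the other way, from 8.73, 8.62 and 8.38 CPM to 6.53, 6.70 and 6.11 CPM (-0.41 ± 0.092) and followed the dose downward. ATF3, TRIB3, SESN2, CEBPG, NUPR1 and SNAI2 did not pass.

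The cytosolic aminoacyl-tRNA synthetases, which charge tRNAs with amino acids, rose by small amounts: 17 of 21 rose, none fell, and 16 followed the dose (median 0.22). TARS1 stood at 127, 125 and 125 CPM in vehicle, 147, 140 and 154 CPM at the low dose, 158, 155 and 158 CPM at the medium dose and 180, 178 and 180 CPM at the high dose, with no overlap between vehicle and any dose. GARS1 (0.49 ± 0.054), WARS1 (0.39 ± 0.045) and NARS1 (0.32 ± 0.042) rose likewise, and WARS1 changed by 0.00 at the low dose. At the low dose 4 members were higher and 1 lower, where 11.5% of all tested genes were higher and 11.5% lower. In serine and one-carbon metabolism, 9 of 17 members rose from low to high dose and none fell, while against vehicle 6 rose and 3 fell. MTHFD1L, of mitochondrial formate production, stood at 38.0, 39.8 and 38.3 CPM in vehicle and at 52.0, 52.9 and 48.7 CPM at the high dose.

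The sulfur amino acid branch was lower at the high dose in several members, with 5 of 17 falling and 2 rising, a split that became 5 and 5 under the GC and length offset. Without the offset the called share was 41.2%, against 36.0% of all tested genes. MAT2A, which makes S-adenosylmethionine, stood at 296, 283 and 303 CPM in vehicle, 308, 307 and 291 CPM at the low dose, 285, 295 and 272 CPM at the medium dose and 180, 190 and 160 CPM at the high dose. Only the high dose libraries lay apart. GNMT, which consumes the same methyl donor, fell by 0.98 ± 0.134 on the log2 scale and CSAD, of taurine synthesis, fell by 1.23 ± 0.137, both following the dose. Of the amino acid transporters 8 of 19 rose and 3 fell, with SLC38A1 (0.37 ± 0.046) and SLC1A4 (0.34 ± 0.051) among those that followed the dose.

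Many cytosolic chaperones were higher from the low dose on. Of 22 heat shock protein genes 20 rose and none fell (median 0.28), 11 of 22 were already higher at the low dose, and 7 of the 20 were held there while 8 followed the dose. HSPA1A, the inducible HSP70 (ENSG00000204389, chr6:31815464-31817946), stood at 61.6, 55.8 and 58.0 CPM in vehicle, 120, 115 and 112 CPM at the low dose, 118, 115 and 115 CPM at the medium dose and 133, 121 and 125 CPM at the high dose. Vehicle lay apart from every dose, and the step from low to high, 0.13, was not called (adjusted p = 0.105); reads of HSPA1A and HSPA1B may be shared. CHORDC1, an HSP90 co-chaperone, stood at 51.5, 43.5 and 50.2 CPM in vehicle and at 73.2, 70.5 and 72.3 CPM at the low dose against 70.9, 69.9 and 73.1 CPM at the high dose. HSPA8, the constitutive HSC70, rose from 1196, 1070 and 1037 CPM to 2009, 2023 and 2092 CPM, most of it at the low dose (0.69 of 0.89 on the log2 scale). DNAJB4, an HSP40, rose by 1.00 ± 0.091. The early rise coincides with the change of label set, and the 2 cannot be told apart. GAANNTTC stood in the promoters of 13 of 21 listed genes with an entry, against 5.85% of all tested genes with one.

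Of endoplasmic reticulum chaperones 16 of 23 rose, 2 fell, 10 were held from the low dose and 2 followed the dose. MANF, a factor secreted under ER stress, stood at 81.2, 82.2 and 80.7 CPM in vehicle, 104, 102 and 105 CPM at the low dose and 117, 108 and 108 CPM at the high dose. PDIA3, a disulfide isomerase, rose by 0.30 ± 0.047 and DNAJB11 by 0.32 ± 0.047, neither with a called step from low to high. The lectin chaperone CANX was an exception that followed the dose (0.33 ± 0.045 against vehicle, 0.22 against the low dose).

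Most genes of the hypoxia programme rose at the high dose. Of 27 HIF targets 21 rose and none fell (median 0.50), 16 followed the dose, and 14 were already higher at the low dose. PFKFB3, which makes the activator of phosphofructokinase, stood at 2.24, 2.68 and 2.23 CPM in vehicle, 6.70, 5.44 and 4.40 CPM at the low dose, 8.82, 5.27 and 6.27 CPM at the medium dose and 10.6, 11.4 and 7.16 CPM at the high dose. Vehicle lay apart from all doses, while the medium dose overlapped both its neighbours. NDRG1, a stress-responsive gene, rose by 1.00 ± 0.090. PDK1, a kinase that inhibits pyruvate dehydrogenase, rose from 33.8, 33.9 and 33.7 CPM to 52.9, 58.9 and 52.7 CPM. The histone demethylase KDM3A rose by 0.68 ± 0.048 and the repressor BHLHE40 by 0.81 ± 0.071. Replicate 1 was the highest of the medium dose libraries for PFKFB3, NDRG1 and PDK1.

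Glycolytic enzymes rose in smaller number, 11 of 27 with 2 lower, and 9 followed the dose. Their called share was 48.1%, against 36.0% of all tested genes. LDHA, lactate dehydrogenase, went from 1377, 1292 and 1299 CPM to 1789, 1795 and 1865 CPM and PKM, pyruvate kinase, from 555, 590 and 581 CPM to 836, 825 and 843 CPM. HKDC1, a hexokinase-like enzyme, changed by 0.02 at the low, 0.26 at the medium and 0.75 ± 0.061 at the high dose. In gluconeogenesis and glycogen metabolism 8 of 16 rose and 3 fell. SLC37A4, which carries glucose 6-phosphate into the ER, fell from 55.0, 50.2 and 53.8 CPM to 33.5, 36.6 and 35.9 CPM, while the coactivator PPARGC1A rose by 0.43 ± 0.071. IGFBP1, a secreted binder of insulin-like growth factors, rose from 103, 116 and 136 CPM to 275, 248 and 215 CPM, and SLC2A4, the insulin-regulated glucose carrier, fell from 13.3, 12.9 and 12.3 CPM to 6.53, 6.31 and 6.14 CPM.

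**Figure D3:**
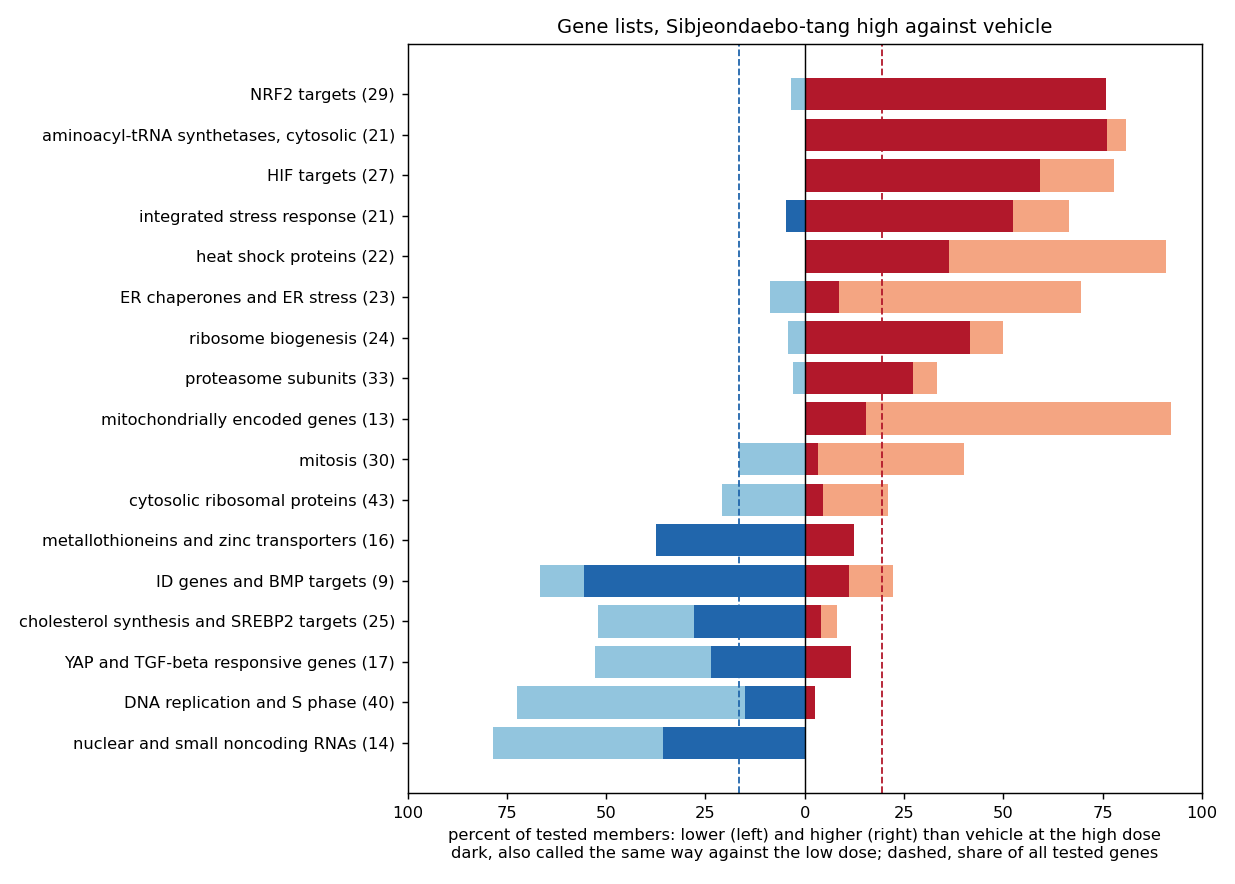
Percent of tested members of 17 gene lists that were lower (left, blue) or higher (right, red) at the high dose than in vehicle; dark parts also passed in the same direction against the low dose, dashed lines mark the shares of all tested genes, and numbers of members stand in parentheses. The dark part fills the bar of NRF2 targets, and only a small part of that of ER chaperones and mitochondrially encoded genes.

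The plot of called members by list shows lists on the lower side as well, lipid synthesis among them. Of 25 cholesterol synthesis genes and SREBP2 targets 13 fell and 2 rose (median -0.17), with 7 of the 13 following the dose. LSS, lanosterol synthase, stood at 262, 283 and 286 CPM in vehicle, 233, 227 and 228 CPM at the low dose, 217, 204 and 203 CPM at the medium dose and 178, 187 and 160 CPM at the high dose, without overlap between any 2 groups. HMGCS1, at the entry of the mevalonate path, fell from 635, 606 and 598 CPM to 445, 464 and 469 CPM and TM7SF2 fell by 0.41 ± 0.057. Of 21 fatty acid and triglyceride synthesis genes 10 fell and 1 rose. MLXIPL, the carbohydrate-sensing transcription factor ChREBP, stood at 174, 184 and 191 CPM in vehicle, 196, 213 and 198 CPM at the low dose and 106, 108 and 93.5 CPM at the high dose. The high dose lay far below vehicle, while the difference of low dose from vehicle was not called (0.14, adjusted p = 0.111). ACSS2, GPAM and DGAT2, which make acetyl-CoA and triglyceride, had log2 changes of -0.45 ± 0.042, -0.41 ± 0.049 and -0.41 ± 0.050. PLIN2, which coats lipid droplets, rose from 192, 203 and 197 CPM to 332, 314 and 311 CPM, and MTTP, which loads lipid on lipoproteins, rose by 0.51 ± 0.047.

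Hepcidin and several ID genes fell with dose. HAMP, the iron-regulating hormone hepcidin (ENSG00000105697, chr19:35280716-35285143), stood at 6.27, 6.58 and 5.58 CPM in vehicle, 4.58, 5.08 and 4.21 CPM at the low dose, 2.05, 2.95 and 2.30 CPM at the medium dose and 0.538, 0.863 and 0.691 CPM at the high dose. All 4 groups were separate and in order, and the log2 change was -3.12 ± 0.182 against vehicle (8.67-fold lower, adjusted p = 5.41e-14) and -2.70 against the low dose. ID3, an inhibitor of helix-loop-helix factors, fell from 14.3, 14.3 and 13.1 CPM to 6.91, 7.73 and 5.85 CPM with the low dose at 13.8, 13.1 and 12.9 CPM, and ID1 fell from 89.7, 75.5 and 80.3 CPM to 52.9, 58.2 and 49.4 CPM. Over the 9 tested ID and BMP genes 6 fell and 2 rose (median -0.39). The ligand gene BMP4 was among the 2 that rose, from 70.0, 64.3 and 65.1 CPM to 90.3, 95.1 and 108 CPM. CHRD, whose product chordin binds and blocks BMPs, fell from 41.7, 42.0 and 42.7 CPM to 19.6, 19.1 and 16.0 CPM. SLC40A1, the iron exporter that hepcidin degrades, fell by 0.43 ± 0.050 and was held from the low dose.

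**Figure D4:**
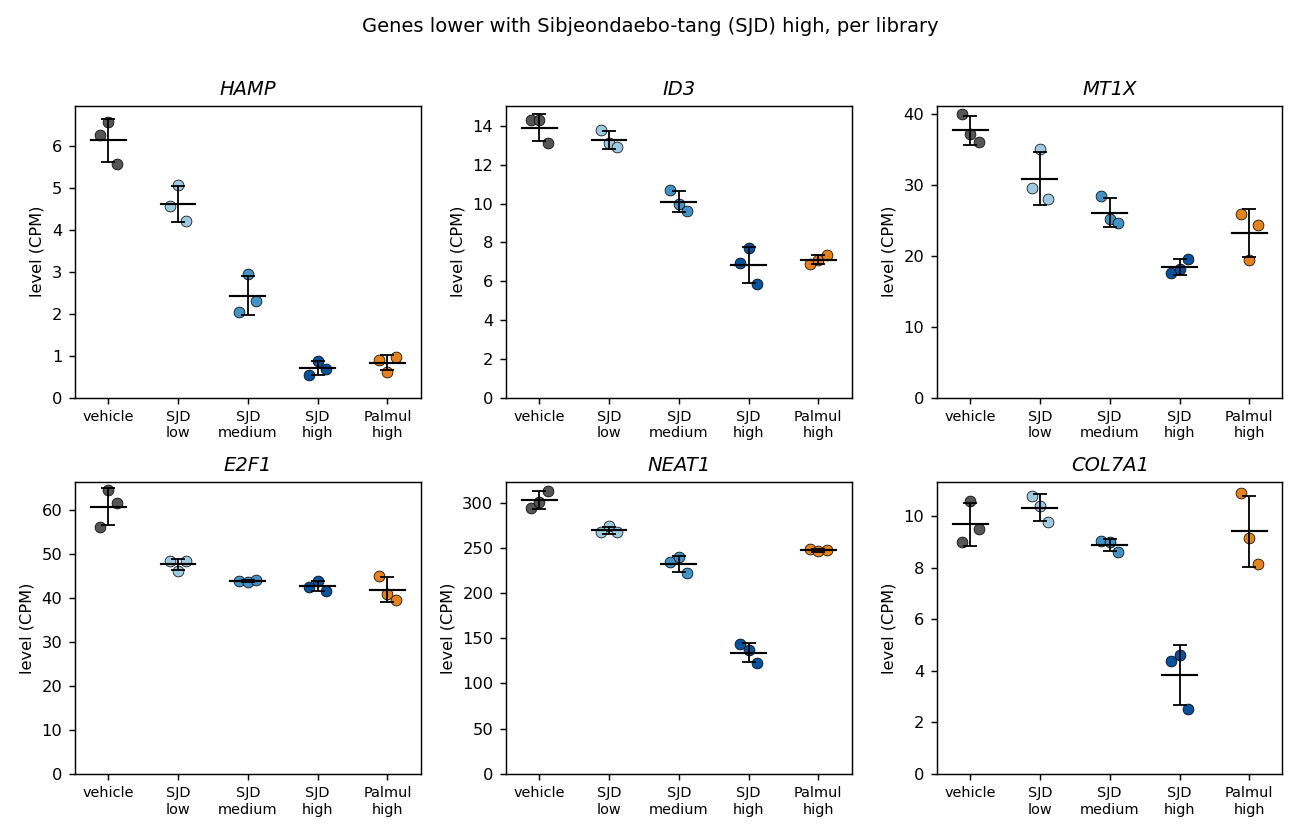
Level in CPM of 6 genes in every library of vehicle, the 3 Sibjeondaebo-tang (SJD) doses and Palmul-tang high, with 1 panel per gene, 1 point per library, lines at the group means and bars of 1 SD (n = 3). HAMP steps down at each dose, E2F1 is already lower at the low dose, and COL7A1 and NEAT1 fall most at the high dose of Sibjeondaebo-tang and lie higher under Palmul-tang.

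The panels for lower genes include MT1X, a metallothionein that binds zinc and copper. MT1X (chr16:56682424-56684196) stood at 40.0, 37.2 and 36.0 CPM in vehicle, 29.5, 35.1 and 28.0 CPM at the low dose, 28.4, 25.2 and 24.6 CPM at the medium dose and 17.5, 18.1 and 19.6 CPM at the high dose. MT1F fell from 55.4, 43.8 and 43.8 CPM to 22.8, 22.6 and 23.5 CPM, and MT1M, under 1 CPM in vehicle, fell by 2.27 ± 0.333. In the list of 16 metallothioneins and zinc transporters 6 fell, 2 rose and all 8 followed the dose; reads of the near-identical MT1 copies may be shared. The zinc importer gene SLC39A10 rose from 12.1, 12.1 and 10.8 CPM to 19.6, 19.4 and 20.3 CPM, and SLC39A5 fell by 0.47 ± 0.065. TGCGCNC stood in 3 of 9 listed promoters and in 30.8% of those of all tested genes.

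Most DNA replication genes were lower. Of 40 members 29 fell and 1 rose (median -0.22), with 18 of the 29 held from the low dose and 6 following the dose. E2F1, which drives S phase genes, stood at 56.1, 64.5 and 61.4 CPM in vehicle, 48.3, 46.1 and 48.3 CPM at the low dose, 43.8, 43.6 and 44.1 CPM at the medium dose and 42.4, 43.8 and 41.6 CPM at the high dose. E2F2 fell further, from 17.6, 17.5 and 17.8 CPM to 10.1, 10.2 and 7.92 CPM, and MCM3 of the replicative helicase and POLE, a replicative polymerase, had log2 changes of -0.35 ± 0.042 and -0.35 ± 0.041. Of 30 mitosis genes 12 rose and 5 fell, with ANLN (0.38 ± 0.044), TPX2 (0.34 ± 0.054) and BUB1 (0.29 ± 0.056) higher and held from the low dose. Of 23 p53 targets 2 rose and 5 fell, 30.4% against the background of 36.0%. CDKN1A, the p21 inhibitor, stood at 133, 117 and 119 CPM in vehicle and 118, 124 and 132 CPM at the high dose, overlapping values with a log2 change of 0.02 (adjusted p = 0.845), which became 0.15 and passed under the GC and length offset.

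Growth factor response genes rose in part, 12 of 27 with none lower, and 8 followed the dose. Their called share was 44.4%, against 36.0% of all tested genes. DUSP6, a phosphatase that dampens ERK, rose from 90.3, 85.9 and 93.2 CPM to 146, 144 and 154 CPM. EGR1, an immediate early factor, stood at 21.2, 20.2 and 22.6 CPM in vehicle, 20.5, 21.1 and 20.1 CPM at the low dose, 28.4, 29.3 and 29.2 CPM at the medium dose and 31.3, 30.4 and 33.3 CPM at the high dose, so that its first step lay between low and medium. In the Wnt list 4 of 15 rose and 3 fell, a called share of 46.7% against 36.0% of all tested genes. The 3 that fell followed the dose. The secreted antagonist DKK1 fell from 133, 120 and 116 CPM to 65.7, 67.4 and 65.2 CPM, DKK4 fell by 0.75 ± 0.137 and LGR5 fell by 0.28 ± 0.045. Of 17 genes that respond to YAP and TGF-beta 9 fell and 2 rose, with ANKRD1 falling from 12.8, 13.1 and 14.6 CPM to 6.53, 7.20 and 6.32 CPM. Of 13 corticosteroid-responsive genes 3 fell, SGK1 (-0.71 ± 0.076), SCNN1A (-0.66 ± 0.081) and HSD11B2 (-0.51 ± 0.076), and 2 rose. Their called share, 38.5%, was near the 36.0% of all tested genes.

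SPP1, the secreted matrix protein osteopontin (chr4:87975650-87983426), stood at 323, 309 and 324 CPM in vehicle, 416, 422 and 433 CPM at the low dose, 501, 517 and 546 CPM at the medium dose and 782, 750 and 872 CPM at the high dose. TMCC1, an ER membrane protein, climbed in the same way from 27.1, 27.6 and 27.6 CPM through 52.2, 50.2 and 48.1 CPM at the low dose to 89.7, 82.8 and 79.2 CPM at the high dose. For both, all 4 groups were separate and in order of dose. High and vehicle values did not overlap for 24.9% of tested genes on the higher and 23.5% on the lower side, and the naming rule asks for this and for a medium dose mean between low and high, so part of such an order was fixed by the choice of genes. CEACAM1, a cell adhesion protein, rose from 123, 112 and 129 CPM to 235, 226 and 264 CPM, and the collagen receptor subunit ITGA2 by 0.85 ± 0.047. UGT1A1, which conjugates bilirubin, rose from 14.9, 11.8 and 12.7 CPM to 25.4, 26.2 and 29.4 CPM; the UGT1A genes share exons, so their counts may be split. Among 25 conjugating enzymes 3 rose and 7 fell, with SULT2A1 (-0.40 ± 0.052) and SULT1C2 (-0.76 ± 0.103) following the dose downward. The called share of this list was 40.0%, against 36.0% of all tested genes. CYP3A4 stayed under 1 CPM in all 6 libraries and did not pass (-0.19, adjusted p = 0.772). The efflux pumps ABCB1 (0.46 ± 0.045) and ABCG2 (0.52 ± 0.077) rose and ABCC6 (-0.63 ± 0.044) fell, all following the dose.

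Among all tested genes 19.3% were higher and 16.7% lower, the background for secreted liver proteins; the called share was 45.7% for plasma proteins, 55.6% for coagulation factors and 42.1% for complement, against 36.0%. Of 35 plasma proteins 8 rose and 8 fell (12 and 7 under the GC and length offset), of 18 coagulation factors 6 rose and 4 fell, and of 19 complement genes 3 rose and 5 fell, a split that turned to 7 and 5 under the GC and length offset. ALB, albumin, stood at 11151, 11313 and 11994 CPM in vehicle, 11528, 10814 and 11105 CPM at the low dose and 8917, 9063 and 9192 CPM at the high dose. KNG1, kininogen, fell from 10.7, 9.81 and 9.53 CPM to 5.38, 5.71 and 6.18 CPM. The copper carrier CP was higher at all doses, at 238, 232 and 254 CPM in vehicle, 368, 348 and 363 CPM at the low dose and 368, 376 and 393 CPM at the high dose, and C3 and F5 (0.33 ± 0.050 and 0.41 ± 0.059) were likewise held from the low dose. MBL2, a lectin of complement, climbed with dose from 30.4, 26.6 and 29.3 CPM to 49.6, 50.8 and 55.6 CPM. The liver transcription factor CEBPA fell by 0.41 ± 0.048 and HNF4A rose by 0.23 ± 0.045, both following the dose.

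Among the lower genes with the largest fall were several that changed mainly between the medium and the high dose. NEAT1, the nuclear RNA that builds paraspeckles (chr11:65422774-65445540), stood at 294, 301 and 313 CPM in vehicle, 267, 274 and 267 CPM at the low dose, 234, 240 and 222 CPM at the medium dose and 143, 137 and 122 CPM at the high dose. COL7A1, of anchoring fibrils, stood at 8.98, 10.6 and 9.49 CPM in vehicle, 10.8, 10.4 and 9.77 CPM at the low dose, 9.04, 8.99 and 8.60 CPM at the medium dose and 4.38, 4.61 and 2.51 CPM at the high dose. Both had the high dose libraries below all others. CCNL2, a cyclin of splicing kinases, fell from 117, 121 and 118 CPM to 60.5, 60.0 and 47.3 CPM, and GOLGA8B, a Golgi protein gene with near-identical copies that may share reads, from 89.5, 89.3 and 90.0 CPM to 45.6, 43.2 and 33.4 CPM. EXOC3L4 (-1.68 ± 0.126), NPEPL1 (-1.37 ± 0.104, with a readthrough transcript on the same locus), ATG16L2 (-1.23 ± 0.121), HGFAC (-1.05 ± 0.138) and OSBPL7 (-1.02 ± 0.099) also fell by 1 or more. Replicate 3 of the high dose was the lowest of its group for COL7A1, GOLGA8B, CCNL2, HGFAC and NEAT1, and it had the highest mitochondrial share of the group, 19.4%. Each of these calls held without it.

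Other nuclear RNAs and splicing factors moved too. In the list of 14 nuclear and small noncoding RNAs 11 fell and none rose (median -0.55); 5 followed the dose, 5 were held and MALAT1 went against it. SNHG12 fell from 17.4, 19.1 and 18.4 CPM to 11.5, 11.5 and 10.5 CPM and the imprinted KCNQ1OT1 fell by 0.62 ± 0.082. RN7SL1, part of the signal recognition particle, varied widely, at 11.9, 18.0 and 12.1 CPM in vehicle and 4.43, 2.49 and 9.41 CPM at the high dose, and its call was lost in 5 of 13 alternatives. Of 27 SR proteins, CLK kinases and hnRNPs 10 rose and 7 fell. SRSF5 stood at 186, 191 and 199 CPM in vehicle, 184, 188 and 189 CPM at the low dose, 180, 188 and 183 CPM at the medium dose and 145, 144 and 138 CPM at the high dose, and SRSF6 (-0.30 ± 0.040) also fell at the high dose.

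Mitochondrially encoded genes rose, 12 of 13 with none lower (median 0.70), 7 of them held from the low dose and 2 following the dose. MT-CO1, a subunit of cytochrome oxidase, stood at 19480, 18227 and 21274 CPM in vehicle, 25615, 28167 and 26235 CPM at the low dose and 29535, 30316 and 34531 CPM at the high dose. MT-ATP8 ranged from 328 to 705 CPM in vehicle and from 1222 to 1776 CPM at the high dose. These rises are the same measurement as the mitochondrial share given above. Of 41 nuclear-encoded respiratory chain subunits 4 rose and 9 fell, a split that turned to 8 and 7 under the GC and length offset. Without the offset their called share was 31.7%, against 36.0% of all tested genes. ATP5F1A (-0.20 ± 0.051) and ATP5F1B (-0.19 ± 0.051) fell and CYC1 rose (0.35 ± 0.065), all from the low dose on. Of 33 proteasome subunits 11 rose and 1 fell at the high dose, with 9 of the 11 following the dose. Their called share, 36.4%, was near the 36.0% of all tested genes. PSMD12 (0.26 ± 0.046) was among the 9. At the low dose 2 subunits were higher and 12 lower, where 11.5% of all tested genes were higher and 11.5% lower. Ribosome biogenesis genes rose in 12 of 24 with 1 lower, including the nucleolar proteins NPM1 (0.32 ± 0.051) and DDX21 (0.28 ± 0.045). Actin, tubulin and keratin genes rose in 13 of 25 with 1 lower, including ACTN1 (0.37 ± 0.044), TPM4 (0.44 ± 0.056) and TPM1 (0.26 ± 0.045); TPM2 was the one that fell, from 4.00, 4.53 and 3.76 CPM to 2.65, 2.26 and 2.04 CPM, after 5.86, 4.32 and 5.31 CPM at the low dose.

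Further genes held from the low dose were PPP2R2C, a phosphatase 2A subunit, which stood at 3.41, 3.09 and 3.98 CPM in vehicle, 7.83, 5.94 and 8.13 CPM at the low dose and 7.65, 8.40 and 9.05 CPM at the high dose, and FILIP1L (0.96 ± 0.086 at the high and 0.91 at the low dose). SOCS1, an inhibitor of cytokine signalling, changed by 0.77 ± 0.124 at the high and 0.83 at the low dose. On the lower side ZNF850 (-0.98 ± 0.138), PTP4A3 (-0.78 ± 0.097), TST, a mitochondrial sulfur transferase (-0.75 ± 0.082), and MDM4, an inhibitor of p53 (-0.74 ± 0.129), already differed at the low dose by -0.97, -0.72, -0.66 and -0.56. Such genes changed where the label set changed, and their dependence on dose was not resolved by these libraries.

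Few genes went against the dose. MALAT1, an abundant nuclear RNA, stood at 403, 390 and 426 CPM in vehicle, 261, 268 and 255 CPM at the low dose, 255, 281 and 261 CPM at the medium dose and 336, 288 and 327 CPM at the high dose, and so was closest to vehicle at the highest dose. BCL6, a transcriptional repressor, had the mirror image with 51.3, 46.5 and 55.2 CPM in vehicle, 72.6, 74.3 and 76.2 CPM at the low dose and 60.1, 60.3 and 63.3 CPM at the high dose. CBX5, the heterochromatin protein HP1 alpha, and ASB13 changed by -0.39 ± 0.065 and -0.39 ± 0.076 at the high dose and by -0.59 and -0.63 at the low dose. N4BP2L2, SRSF10 and RABGAP1 were higher by 0.19 ± 0.054, 0.21 ± 0.054 and 0.21 ± 0.054, and their calls and that of SKIC8 (-0.19 ± 0.076) were each lost in at least 1 alternative. Among genes not placed by dose were SULT1A3 (1.06 ± 0.217, with a near-identical copy), NDUFAF2 (0.65 ± 0.160), FZD1 (-0.55 ± 0.119) and ERMARD (-0.61 ± 0.129).

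The step from low to medium dose uses no library of the main comparison. It called 18 genes (0.112%), 16 higher (0.0995%) and 2 lower (0.0124%). With a low dose library left out it called 8, 3 or 5 genes (replicates 1, 2 and 3), and without medium dose replicate 1 or 3 it called 3 or 10. Of the 18, 16 were called in the same direction at the high dose against vehicle, where the background is 19.3% higher and 16.7% lower. All 16 also followed the dose, but that class needs a call in high against low, which shares the low dose libraries with this step. CYP1A1 led with 1.09 ± 0.083, then EGR1 with 0.49, UGT1A1 with 0.43, SLC16A6 with 0.41, AKAP12 with 0.35 and TMCC1 with 0.34, and HAMP was the one that fell (-0.93). ASNS (0.30), MBL2 (0.26), STC2 (0.25), ITGA2 (0.25) and TRIB1 (0.22) were in this group, together with CEMIP, DCDC2, CPLX2 and CAVIN2. FMN1 (0.82) and UGT2B4 (-0.27) were called in this step and not at the high dose against vehicle. Genes of this step outside the naming rule were named after their values were seen. The NRF2 targets had no member among the 18. With 0.112% of all tested genes called, an absence among 29 members is uninformative. The median of the NRF2 targets from low to medium was 0.08.

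Palmul-tang at the same 500 µg/mL offered a comparison of formulas inside the label set. Sibjeondaebo-tang differed from it in 1041 genes (6.47%), 282 higher (1.75%) and 759 lower (4.72%), with the higher share moving from 27.1% to 49.4% under the GC and length offset and to 15.0% with median-ratio scaling. Without Sibjeondaebo-tang replicate 3 the count was 545, and without Palmul-tang replicate 1 it was 675. CYP1A1 was lower than under Palmul-tang, whose libraries stood at 185, 180 and 170 CPM against 124, 127 and 160 CPM (-0.38 ± 0.071, adjusted p = 0.0007), and AKR1B10 was lower too (-0.25 ± 0.057). ASNS was higher, with Palmul-tang at 62.8, 60.8 and 63.5 CPM (0.20 ± 0.049). HSPA1A (Palmul-tang 127, 128 and 118 CPM) differed by 0.02 ± 0.056, HAMP differed by -0.22 ± 0.256 and SPP1 by -0.14 ± 0.090, and none of the 3 passed. Several genes that fell late with dose differed between the formulas: NEAT1 stood at 249, 246 and 247 CPM under Palmul-tang (-0.89 ± 0.052), GOLGA8B at 109, 107 and 110 CPM (-1.42 ± 0.071) and COL7A1 at 10.9, 9.16 and 8.16 CPM (-1.31 ± 0.132). In all 3 the Sibjeondaebo-tang libraries lay below every Palmul-tang library.

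**Figure D5:**
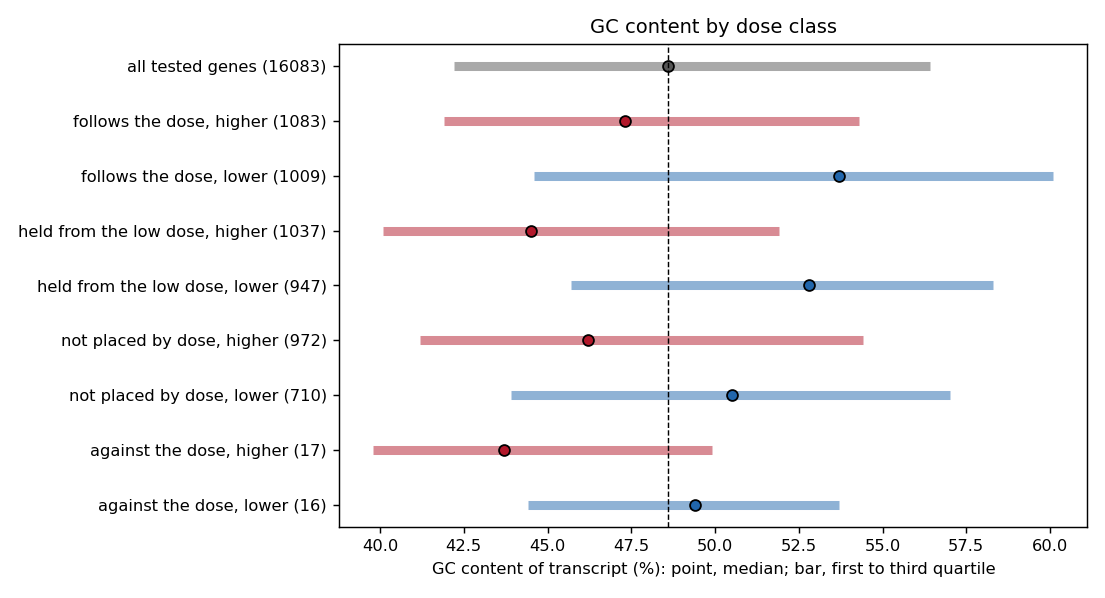
Transcript GC content in percent of tested genes and of genes in each class of Sibjeondaebo-tang high dose against vehicle (median and quartiles). Genes that followed the dose downward had a median of 53.7%, against 47.3% for those that followed it upward and 48.6% for all tested genes.

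The plot of GC content shows a property that was not used in choosing the classes. Genes that followed the dose upward were protein coding in 97.4%, against 79.7% of all tested genes and 78.7% of those that followed it downward. Their median GC content was 47.3%, and that of genes held higher from the low dose 44.5%, while the lower classes stood at 53.7% (following the dose) and 52.8% (held). With GC content and length entered as an offset, 1070 of the 1083 genes that followed the dose upward (98.8%) and 856 of the 1009 that followed it downward (84.8%) kept both calls in the same direction. The part of GC content in the remaining calls was not tested.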

How the data were processed

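The authors deposited RSEM expected counts per gene, which need not be whole (8.56% of values were not). The submitters' processing notes name FastQC 0.11.9, Trim Galore 0.6.5, STAR 2.7.3a, RSEM 1.3.3 and GRCh38. Per the labels' protocols, libraries were made with a directional kit. Expected counts were rounded and fitted with edgeR 4.0.16 in R 4.3.3 (TMM, filterByExpr with a minimum count of 10, robust quasi-likelihood, Benjamini-Hochberg, threshold 0.05, two-sided) over 27 libraries of 10 groups, which share the spread (17 residual degrees of freedom). Sagunja-tang, with 1 library per dose, and 240 columns of other samples were not used. Gene names matched 56558 rows, and positions follow GENCODE on GRCh38. On simulated counts the fit of high against vehicle recovered 38% of 1.2-fold, 80% of 1.5-fold and 98% of 2-fold changes, with 50 genes of each size among 15868. Far fewer genes changed there than the 36.0% called in the data. The adjusted p depends on that share, so recovery in the data may differ.

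Named genes were chosen by rule. For genes that followed the dose, with the medium dose mean between low and high, the rule took up to 12 per direction with the largest change, mean log2 CPM of at least 2, no overlap of the groups and a symbol that is no clone, LINC, antisense or readthrough name. It took up to 6 held, 4 against and 6 genes not placed by dose per direction by the same criteria. It also took the 4 smallest adjusted p per list with 5 or more tested members, and 11 fixed genes; some genes that the rule names are not reported here. The members and lists were chosen with earlier results of these data known. Alternatives were median-ratio factors, no filter, a GC and length offset (5 spline degrees of freedom), a replicate block, compared groups alone, DESeq2 1.42.0 and leaving out each library.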

Additional observations from a re-analysis of the deposited data

Results flagged for a closer look

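For the genes below, the effect of Sibjeondaebo-tang at the high dose differed from that of Palmul-tang at the high dose in edgeR's test of the difference. In log2 units, Sibjeondaebo-tang was lower than Palmul-tang for GOLGA8B (-1.42), COL7A1 (-1.31), ATG16L2 (-1.12), CHRD (-1.05), NPEPL1 (-1.02), NEAT1 (-0.89), HGFAC (-0.87), OSBPL7 (-0.86), CCNL2 (-0.85) and EXOC3L4 (-0.67). All of these also fell with dose against vehicle. It was lower by smaller amounts for TRAPPC2 (-0.41), CYP1A1 (-0.38), N4BP2L2 (-0.28) and AKR1B10 (-0.25), and higher for CBX5 (0.31) and MALAT1 (0.22). Without Sibjeondaebo-tang high replicate 3, 545 genes differed between the formulas in place of 1041.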

How the results depend on the processing

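The number of genes called against vehicle stayed between 4305 and 6376 under every alternative run, the lowest without high dose replicate 3. High against low dose called 2042 to 2582 genes with 1 library left out (2042 without high dose replicate 3), against 3191, and genes that followed the dose numbered 1285 to 1850 (1285 without that replicate), against 2092. Without the low-count filter the higher share of these 2 sets was 39.8% and 40.3%. Medium against low dose, with 18 calls, was the least stable: 174 without the filter, 106 with the compared groups alone, 55 with DESeq2, 68 with the replicate block, 33 in the same 7 groups without the block (a fit chosen after seeing the data), and 3 to 12 with 1 library left out (3 without low dose replicate 2 or medium dose replicate 1). The difference from Palmul-tang gave 1568 genes under the GC and length offset and 545 to 925 with 1 library left out (545 without Sibjeondaebo-tang replicate 3, 675 without Palmul-tang replicate 1). The cause of these shifts was not tested. Same-numbered high dose and vehicle libraries did not deviate together from their group means (correlations of -0.029, -0.058 and -0.058). Such deviations cancel within a group of 3 libraries, so same-numbered and other correlations are not independent. These values therefore cannot decide whether the numbers pair libraries. For medium and low dose libraries the same-numbered correlations were 0.022, 0.064 and 0.08, and the others lay between -0.062 and 0. For high and low dose the same-numbered values were 0.001, 0.031 and 0.029. The labels state no pairing. The replicate block gave 6376 calls against vehicle and 6228 in the same groups without it. No named gene that was called changed direction; CDKN1A (-0.04 to 0.15) and CYP3A4 (-0.78 to 0.13), neither called, changed sign. The median over all genes moved by under 0.1 on the log2 scale with either scaling. Of 53 lists, 1 count moved over 1.5 times with median-ratio factors (AHR machinery, from 4 to 2 called) and 1 with the offset (glutathione and NADPH enzymes outside the NRF2 list, from 6 to 10). At this depth and number of libraries, 38% of simulated 1.2-fold changes were called against vehicle. The simulation changed far fewer genes than were called in the data, so this share need not hold there. A gene that did not pass may still differ by that much.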
